A study of Schmidtea mediterranea with 8 samples.

Results

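Contigs of the planarian *Schmidtea mediterranea* that lay lower in the cephalic ganglia after *hh(RNAi)* and higher after *ptc(RNAi)* are described here. They were chosen on the deposited group means: the log2 ratio of *hh(RNAi)* to control, with 1 added to each mean, had to be at or below -0.58, and that of *ptc(RNAi)* to control at or above 0.58. Both averages of the group means also had to be at least 100. Of 38634 contigs, 11907 met that minimum, 58 met both ratios and 57 were kept, because *smedwi-1* belongs to a table of marker genes that was left out. The members therefore had to be low after *hh(RNAi)* and high after *ptc(RNAi)*, and their values in these groups are given as a description without a test. Both ratios also use the same control libraries.

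Hedgehog (Hh) is a secreted ligand, and Patched (Ptc) is its receptor. In the absence of ligand Ptc holds the membrane protein Smoothened inactive, so that loss of *hh* lowers signaling and loss of *ptc* raises it, up to the Gli transcription factors and the inhibitor Sufu. In planarians *hh* is expressed in neurons of the cephalic ganglia, the brain. New cells of all tissues come from neoblasts, dividing stem cells that express PIWI genes such as *smedwi-1*.

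Poly(A) RNA was sequenced in 4 groups of 2 libraries. Cephalic ganglia (CNS) came from S2F1L3F2 animals, a sexual strain, after *hh*, *ptc* or control RNAi, the control being *unc-22* of *C. elegans*, a gene that planarians lack. Animals were fed bacteria expressing the double-stranded RNA 12 times at intervals of 4 days, and 0.2 µg of RNA entered each library. The fourth group was head fragments of CIW4 animals, an asexual strain, fed *unc-22* double-stranded RNA 6 times at the same interval, with 1.0 µg of RNA per library. The ganglia were dissected from animals briefly exposed to acid, after epidermis and overlying gut had been taken off, so other tissue could remain. Libraries were made in duplicate with no statement that they came from separate animals, and p-values measure only the spread between these libraries. Feeding double-stranded RNA acts on the whole animal, so the RNAi was not restricted to the ganglia.

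Reads of each library were recovered from the deposited means as whole numbers. The libraries of a group are called a and b because their replicate numbers are not known. The libraries held 11479783 to 18928135 reads assigned to contigs (median 12327233). The targeted ligand gene *hh* had 38.3 and 80.1 normalized reads (reads over the size factor of their library) in *hh(RNAi)*, 185 and 190 in *ptc(RNAi)*, and 243 and 211 in control CNS. The targeted receptor gene *ptc* had 155 and 110.0 normalized reads in *hh(RNAi)*, 190 and 199 in *ptc(RNAi)*, and 287 and 293 in control CNS. Each target was thus lower in both libraries of its own RNAi than in both control libraries. Of the 7 Hh pathway genes, 5 passed the expression minimum. A contig was called where limma, a linear model with moderated variances fitted to all contigs, gave a Benjamini-Hochberg adjusted p under 0.05 and a difference beyond 2-fold. By this measure limma called 0 of them in *hh(RNAi)*, where 0.00823% of all tested contigs were called lower and 0.00% higher, and 0 in *ptc(RNAi)*, where 0.0743% were called lower and 0.264% higher. At an unadjusted p under 0.05 they were 2 genes in *hh(RNAi)*, *hh* and *ptc*, and 1 in *ptc(RNAi)*, *ptc*. Their limma adjusted p was 0.99988 for both genes in *hh(RNAi)* and 0.308 for *ptc* in *ptc(RNAi)*. DESeq2 called 1 in *hh(RNAi)* and 0 in *ptc(RNAi)*, and edgeR 0 in each. No share over all contigs was computed for the unadjusted p or for these 2 tools. All 4 general neuronal markers (*synapsin*, *choline acetyltransferase* and *prohormone convertase 2* among them) were called higher by limma in control CNS than in head fragments. The photoreceptor gene *ovo* and the pharynx gene *wntP-3* averaged fewer than 3 reads in the 6 CNS libraries. The *hh(RNAi)* libraries stand apart from each other in the members, as the shares of reads below show, and the values of the rule are therefore also given without each library.

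The members spread from just past both limits to ratios far from control. Their log2 ratios in *hh(RNAi)* ran from -3.55 to -0.59 with a median of -1.16, and the median of all 11907 contigs was -0.02. In *ptc(RNAi)* they ran from 0.69 to 2.85 with a median of 1.19, against -0.01 for all contigs. At least a 2-fold difference was seen in 36 members in *hh(RNAi)*, in 37 in *ptc(RNAi)* and in 25 in both. Among all considered contigs 280 (2.35%) passed the *hh(RNAi)* limit, 226 (1.90%) the *ptc(RNAi)* limit and 58 (0.487%) both. The members nearest to the *hh(RNAi)* limit had -0.59 and -0.59, and the nearest contigs outside it -0.52 and -0.50. At the *ptc(RNAi)* limit the values were 0.69 and 0.70 inside against 0.52 and 0.52 outside, and at the expression limit averages of 105 and 108 inside against 97.1 and 98.1 outside.

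**Figure D1:**
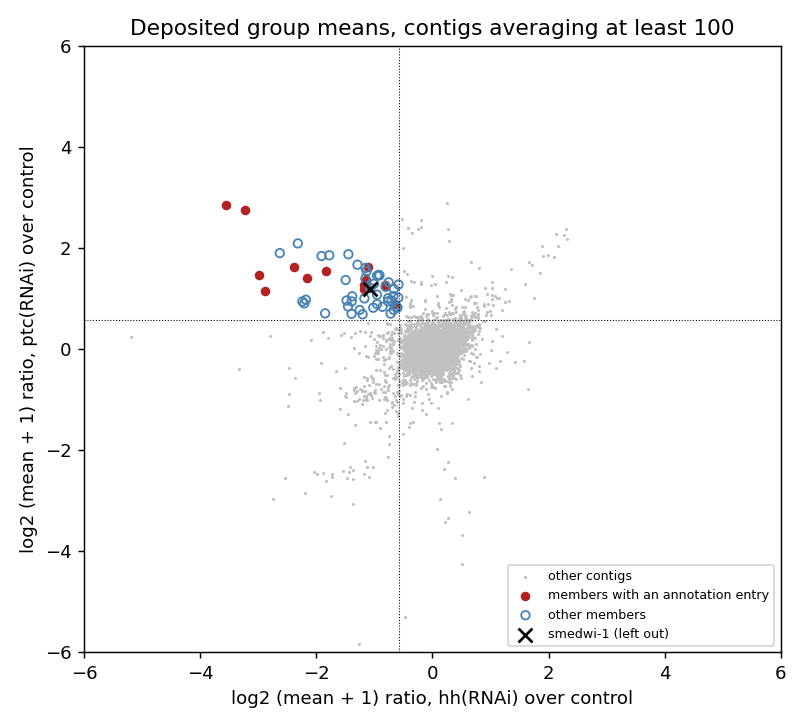
Log2 ratio of the deposited means (with 1 added) in *hh(RNAi)* over control on the x axis and in *ptc(RNAi)* over control on the y axis, for 11907 contigs; dotted lines mark -0.58 and 0.58. The 57 members fill the upper left corner by construction, down to -3.55 and up to 2.85, and *smedwi-1*, which was left out, lies among them.

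The study annotated 13 of the members in a table of 30 contigs that it had chosen for their change in *hh(RNAi)* or *ptc(RNAi)* in these same libraries, so that table is no independent evidence of direction. Of these 13, 9 carry a protein name and 4 are listed with No Similarity. The other 44 members are paired with no name in the tables used here. In all 13 annotated contigs the *hh(RNAi)* libraries were both lower than either control library, and both *ptc(RNAi)* libraries lay above them. This order was found in 3.40% of all considered contigs. Because the rule and the study both chose on these libraries, nothing is read from this count.

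Proteins of the GLIPR1 family belong to the CAP superfamily, most members of which are secreted, and all 3 contigs annotated as GLIPR1-like protein 1-like in that table were members. Contig dd_Smed_v4_7131_0_1 had 147 and 80.1 normalized reads in *hh(RNAi)*, 2274 and 2777 in *ptc(RNAi)*, and 829 and 988 in control CNS. Contig dd_Smed_v4_433_0_1 had 735 and 400.3 in *hh(RNAi)*, 6003 and 7537 in *ptc(RNAi)*, and 2434 and 2674 in control CNS. In both contigs the 3 groups were far apart relative to the distance between libraries, with log2 ratios of -2.99 and -2.16 in *hh(RNAi)* and 1.47 and 1.40 in *ptc(RNAi)*. Contig dd_Smed_v4_1530_0_1 had 330.0 and 533 in *hh(RNAi)*, 2640 and 3140 in *ptc(RNAi)*, and 567 and 1305 in control CNS. Here the highest *hh(RNAi)* library came close to the lowest control library, and the *hh(RNAi)* log2 ratio of -1.11 became -0.39 without control library b. Each read was counted at its best single alignment, so the division of reads among contigs with the same best match is uncertain.

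Other members have names of secreted or membrane-associated proteins. FAM115A, known in human as TCAF1, is a factor that binds the cold-sensitive channel TRPM8. Its contig dd_Smed_v4_3451_0_1 had 503 and 228 normalized reads in *hh(RNAi)*, 5147 and 7052 in *ptc(RNAi)*, and 2542 and 2925 in control CNS, with log2 ratios of -2.89 and 1.15. The distance from control was thus larger after *hh(RNAi)* than after *ptc(RNAi)*. Proteins with a WAP domain include secreted protease inhibitors. The contig named WAP four-disulfide core domain protein 6B, dd_Smed_v4_57_0_1, had 924 and 1083 in *hh(RNAi)*, 5574 and 6045 in *ptc(RNAi)*, and 1516 and 2946 in control CNS. Its control libraries lay further apart than those of either RNAi group.

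Zonadhesin is a mammalian sperm protein that binds the egg coat. The contig with that name, dd_Smed_v4_1636_0_1, had 1989 and 193 normalized reads in *hh(RNAi)*, 13003 and 9974 in *ptc(RNAi)*, and 4987 and 2843 in control CNS. The *hh(RNAi)* libraries were the most divergent of any annotated member, and its log2 ratio of -1.83 became -4.33 without *hh(RNAi)* library a and -0.97 without library b. In *ptc(RNAi)* the log2 ratio was 1.55, and between 1.19 and 2.01 with a control or *ptc(RNAi)* library left out.

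A pair of members encode proteins of the endoplasmic reticulum. Protein disulfide-isomerases form disulfide bonds in proteins on their way to secretion, and contig dd_Smed_v4_821_0_1, named protein disulfide-isomerase A5, had 1304 and 850 normalized reads in *hh(RNAi)*, 7327 and 4554 in *ptc(RNAi)*, and 2212 and 2669 in control CNS. Reticulocalbin-1 binds calcium in the same compartment. Its contig dd_Smed_v4_493_0_1 had 621 and 1162 in *hh(RNAi)*, 2923 and 2341 in *ptc(RNAi)*, and 1246 and 1561 in control CNS. Reticulocalbin-1 had the smallest distance between *hh(RNAi)* and *ptc(RNAi)* among the annotated members, with log2 ratios of -0.65 and 0.90. Its *hh(RNAi)* ratio missed the limit at -0.27 without *hh(RNAi)* library a and at -0.48 without control library b.

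Alpha tubulin is a subunit of microtubules and comes from a multigene family, whose near-identical copies can share reads. The contig named tubulin alpha 1A chain, dd_Smed_v4_648_0_1, had 852 and 527 normalized reads in *hh(RNAi)*, 4122 and 3096 in *ptc(RNAi)*, and 1500.4 and 1651 in control CNS. Its log2 ratios, -1.19 and 1.19, were close to the medians of the members, and all 6 libraries were separated by group.

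The 2 members furthest from control in both directions were listed with No Similarity. Contig dd_Smed_v4_13594_0_1 had 173 and 43.8 normalized reads in *hh(RNAi)*, 10856 and 7765 in *ptc(RNAi)*, and 689 and 1886 in control CNS. Contig dd_Smed_v4_9223_0_1 had 94.8 and 60.9 in *hh(RNAi)*, 5933 and 4029 in *ptc(RNAi)*, and 483 and 992 in control CNS. Their log2 ratios were -3.55 and -3.22 in *hh(RNAi)* and 2.85 and 2.75 in *ptc(RNAi)*, and with any library left out none of these came nearer to 0 than -2.61 or 2.30. Contig dd_Smed_v4_6605_0_1 had 145 and 65.1 in *hh(RNAi)*, 1566 and 1895 in *ptc(RNAi)*, and 563 and 548 in control CNS. Its control libraries were nearly equal. The last of these 4, dd_Smed_v4_331_0_1, had 1107 and 1317 in *hh(RNAi)*, 5446 and 4929 in *ptc(RNAi)*, and 1534 and 2768 in control CNS. It was much nearer to control in *hh(RNAi)*, at -0.82, and that ratio missed the limit at -0.33 without control library b.

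**Figure D2:**
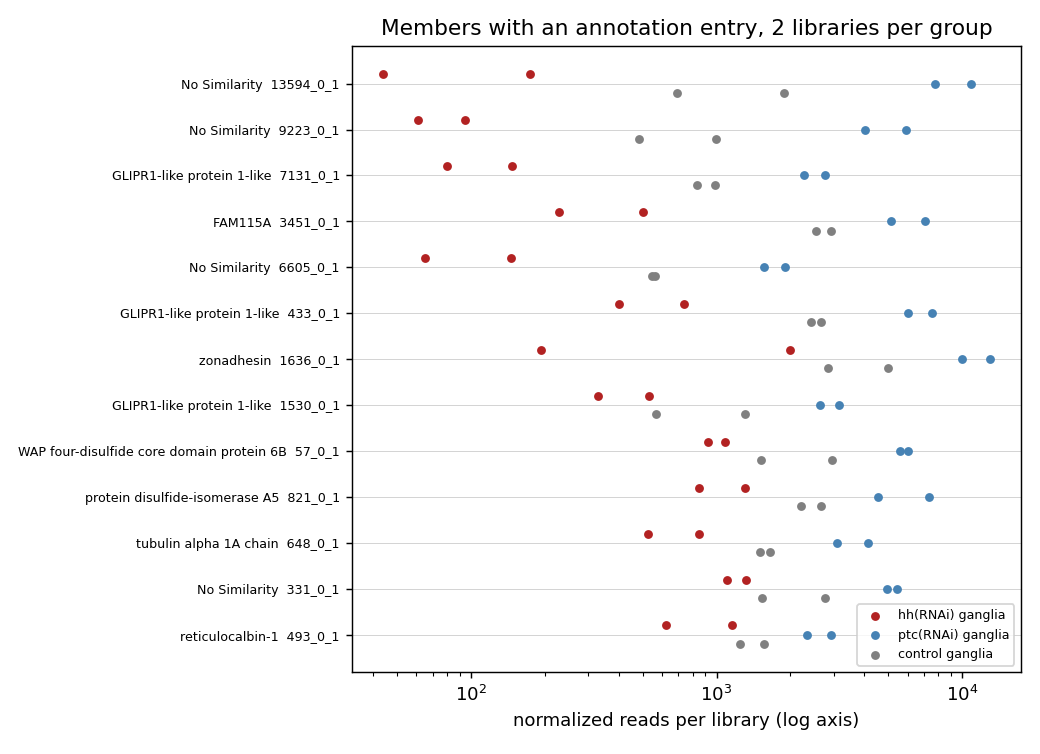
Normalized reads per library (log axis) of the 13 annotated members, 1 point per library and 2 libraries per group, with *hh(RNAi)* drawn above *ptc(RNAi)* and control CNS below. In each contig both red points lie left of both grey points and both blue points lie right of them, from 43.8 and 10856 in the top contig to 621 and 2923 in reticulocalbin-1. The rule chose on the means of these libraries, so nothing is read from this order.

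Of the 17 other contigs in the study's annotation table, 11 had an *hh(RNAi)* ratio above -0.58 and 9 a *ptc(RNAi)* ratio below 0.58, including 3 with both. The glial genes *if-1* and *cali*, which the rule names as left out, were among the 9, with *ptc(RNAi)* log2 ratios of 0.18 and 0.26. So was *prog-1*, which lay below control in both RNAi groups, at -1.16 in *hh(RNAi)* and -0.83 in *ptc(RNAi)*. Peptidyl-prolyl cis-trans isomerase C, another protein folding enzyme (dd_Smed_v4_348_0_1), was the second nearest contig outside the *hh(RNAi)* limit, with log2 ratios of -0.50 in *hh(RNAi)* and 2.00 in *ptc(RNAi)*.

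Among the 44 members with no annotation, the largest distances between *ptc(RNAi)* and *hh(RNAi)* were those of dd_Smed_v4_4135_0_1 and dd_Smed_v4_18464_0_1. Contig dd_Smed_v4_4135_0_1 had 116 and 10.7 normalized reads in *hh(RNAi)*, 1177 and 1809 in *ptc(RNAi)*, and 93.1 and 704 in control CNS. Its *hh(RNAi)* and control libraries overlapped, and its *hh(RNAi)* log2 ratio of -2.63 became -0.54 without control library b. Contig dd_Smed_v4_18464_0_1 had 65.6 and 45.9 in *hh(RNAi)*, 1088 and 1345 in *ptc(RNAi)*, and 347 and 220 in control CNS. The 3 groups did not overlap in it, and its log2 ratios of -2.32 and 2.09 stayed past the limits with each library left out.

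Some members are pieces of the same transcript cluster. Contig identifiers that share a number before the suffix come from a single cluster of the assembly, and the 57 members fall into 52 such clusters, 5 of which hold 2 members each. The only other contig of these clusters in the tables, dd_Smed_v4_8136_0_2, averaged under 100 and could not be a member. These 10 paired contigs may share reads and are not separate genes by this evidence. Chosen after its values were seen, the pair dd_Smed_v4_91_0_1 and dd_Smed_v4_91_0_2 took the largest number of reads. Contig dd_Smed_v4_91_0_1 had 22223 and 5647 normalized reads in *hh(RNAi)*, 106902 and 73350 in *ptc(RNAi)*, and 39618 and 21954 in control CNS. Contig dd_Smed_v4_91_0_2 had 4601 and 682 in *hh(RNAi)*, 21094 and 15127 in *ptc(RNAi)*, and 7739 and 4083 in control CNS. In both, *hh(RNAi)* library a lay above control library b, and without *hh(RNAi)* library b their *hh(RNAi)* log2 ratios were -0.46 and -0.35 instead of -1.14 and -1.15.

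The abundance of the members was like that of the contigs considered at the median, with a long upper tail. Averaged over the 6 CNS libraries, the members had between 158 and 44949 normalized reads with a median of 427, and the median of all considered contigs was 392. There were 31 members under 500 and 23 at or above 1000. Contig lengths are not used here, so these are reads per contig and not per length.

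In 49 members the *hh(RNAi)* libraries were both lower than either control library, a separation found in 16.3% of all considered contigs. Both *ptc(RNAi)* libraries lay above both control libraries in 56, beside 17.2% of all contigs, and the full order *hh(RNAi)* below control below *ptc(RNAi)* held in 48, beside 3.40%. Because the rule chose on the means of these libraries, nothing is read from these counts. The single member with overlapping *ptc(RNAi)* and control libraries was dd_Smed_v4_158_0_1, which had 114 and 196 in *hh(RNAi)*, 568 and 274 in *ptc(RNAi)*, and 275 and 239 in control CNS. In all 57 members both *ptc(RNAi)* libraries lay above both *hh(RNAi)* libraries, beside 18.9% of all considered contigs. The rule sets the means of these groups apart, so nothing is read from this count either.

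Summed over all members, the reads showed how far the libraries of a group differed. The members took 0.542% and 0.175% of the reads on contigs in *hh(RNAi)* libraries a and b, 2.67% and 2.04% in *ptc(RNAi)*, and 0.933% and 0.894% in control CNS. In head fragments they took 3.63% and 3.58%. For 6 members, this large cluster of dd_Smed_v4_91_0_1 and dd_Smed_v4_91_0_2 among them, more than 1 pair of head reads gave the deposited mean. The most even pair was used, so nothing is read from how close the head shares are. As a ratio, the *hh(RNAi)* libraries stood further apart than those of the other CNS groups, yet both were below the control libraries. With these pairs, the head fragments were above all CNS libraries. Wilson 95% intervals, which cover counting error only, were narrow, at 0.538% to 0.546% and 0.172% to 0.177% in *hh(RNAi)*. The pair dd_Smed_v4_91_0_1 and dd_Smed_v4_91_0_2 took 43.9% and 29.6% of these member reads in *hh(RNAi)*, 37.0% and 35.2% in *ptc(RNAi)*, and 42.0% and 23.1% in control CNS. In head fragments it took 49.7% and 49.8%, again with the most even pairs, so the summed share rests in large part on that cluster.

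**Figure D3:**
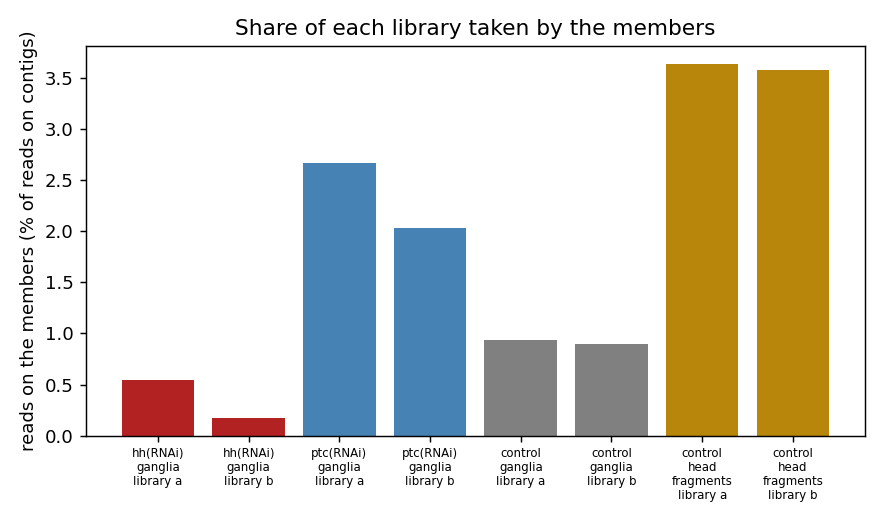
Reads on the 57 members as a percentage of all reads on contigs, 1 bar per library. The bars stand at 0.542% and 0.175% in *hh(RNAi)*, 2.67% and 2.04% in *ptc(RNAi)*, 0.933% and 0.894% in control CNS, and 3.63% and 3.58% in control head fragments. For 6 members the most even of several possible pairs of head reads was used, so nothing is read from the evenness of the head bars.

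The members also differed between libraries of the same group. A rule on means of 2 libraries favours contigs with a wide spread between these CNS libraries, so the following values are a description with no test. In *hh(RNAi)*, 44 of 57 members were higher in library a, beside 41.7% of all considered contigs. More than 2-fold apart were 18 members, all with library a higher, beside 3.94% of all considered contigs. The median log2 difference, library a minus library b, was 0.54 for the members and -0.08 for all contigs. In *ptc(RNAi)*, 44 members were higher in library a, beside 55.7% of all contigs. The median was 0.46, against 0.04 for all contigs, and 2 members were more than 2-fold apart (1.40% of all contigs). In control CNS, 44 members were higher in library b with a median of -0.25, against -0.02, and 11 were more than 2-fold apart, all with library b higher (1.44% of all contigs). In head fragments the median was 0.01, against -0.02, and 0 members were more than 2-fold apart (0.244% of all contigs). There, the pairs of 6 members were the most even of several possible ones. The spread of the members within a group was wider than that of contigs at large in all 3 CNS groups, at a median absolute difference of 0.64, 0.48 and 0.35 in *hh(RNAi)*, *ptc(RNAi)* and control CNS against 0.25, 0.18 and 0.13, and was narrow in head fragments, at 0.06 against 0.08.

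The widest of these pairs, chosen after its values were seen, was dd_Smed_v4_566_0_1, with 3656 and 222 normalized reads in *hh(RNAi)*, 20830 and 9716 in *ptc(RNAi)*, and 2834 and 6713 in control CNS. Its partner dd_Smed_v4_566_0_2 had 1634 and 105 in *hh(RNAi)*, 5616 and 3253 in *ptc(RNAi)*, and 1502 and 3085 in control CNS. In both, *hh(RNAi)* library a lay between the control libraries, and library b was far below them. Of the 18 members more than 2-fold apart in *hh(RNAi)*, 4 were annotated and 10 averaged at least 1000 normalized reads. Without *hh(RNAi)* library b, 11 of these 18 still met the rule, as did 34 of the other 39.

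**Figure D4:**
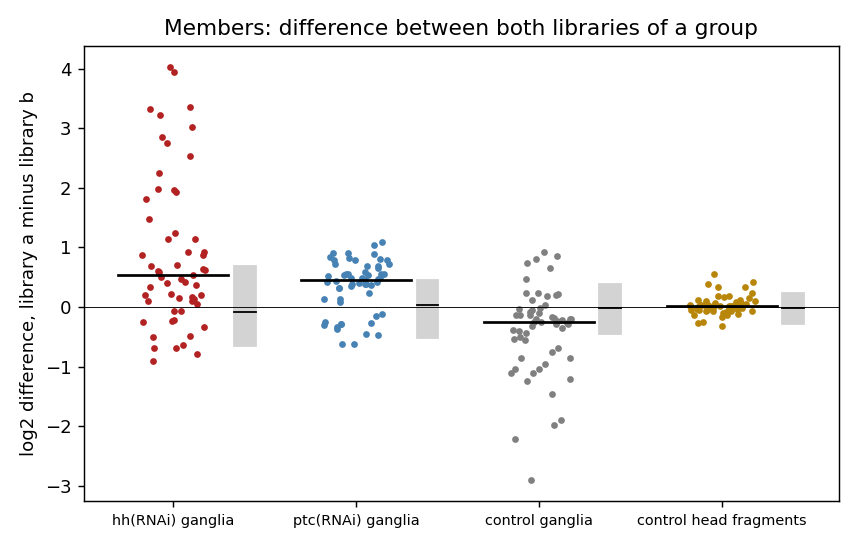
Log2 difference in normalized reads between library a and library b of each group, 1 point per member, with the members' median as a black line; each grey bar spans the 5th to 95th percentile of all 11907 considered contigs with its median. The members' medians are 0.54 in *hh(RNAi)*, 0.46 in *ptc(RNAi)*, -0.25 in control CNS and 0.01 in control head fragments.

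Applying the rule with each library left out in turn gave between 45 and 65 contigs. Of the 57 members, 49 met it without *hh(RNAi)* library a and 45 without library b. Without *ptc(RNAi)* library a 44 met it and without library b all 57, while without control library a 51 met it and without control library b 39. In all 6 cases 22 members met it, among them 10 of the 13 annotated contigs. The 3 annotated contigs that did not were dd_Smed_v4_1530_0_1, dd_Smed_v4_331_0_1 and reticulocalbin-1, all on the *hh(RNAi)* side.

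The comparison of control CNS with control head fragments was not used by the rule, although it shares the control CNS libraries with it. The members were mostly lower in the dissected ganglia. Of 56 members tested with limma and Benjamini-Hochberg adjustment, 32 (57.1%) were lower in CNS and 3 (5.36%) higher, while of all 13494 tested contigs 22.2% were lower and 32.7% higher. Their median log2 fold change was -1.35, from -3.34 to 1.88, against a median of 0.32 for all tested contigs. Below 0 were 48 members, and 17 were below -2. On the recovered reads, edgeR called 38 members lower and 1 higher, and DESeq2 called 39 lower and 1 higher. No share over all contigs was computed for the counts below 0 and -2 or for those of edgeR and DESeq2. They are therefore a description of the members only. When the median over the tested contigs was set to 0, 42 members (75.0%) were lower and 1 was higher, beside 27.5% lower and 25.3% higher among all contigs. Strain, feedings, RNA input and dissection changed together with the tissue and cannot be told apart from it, and in bulk RNA fewer cells of a type and less RNA per cell cannot be told apart either.

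**Figure D5:**
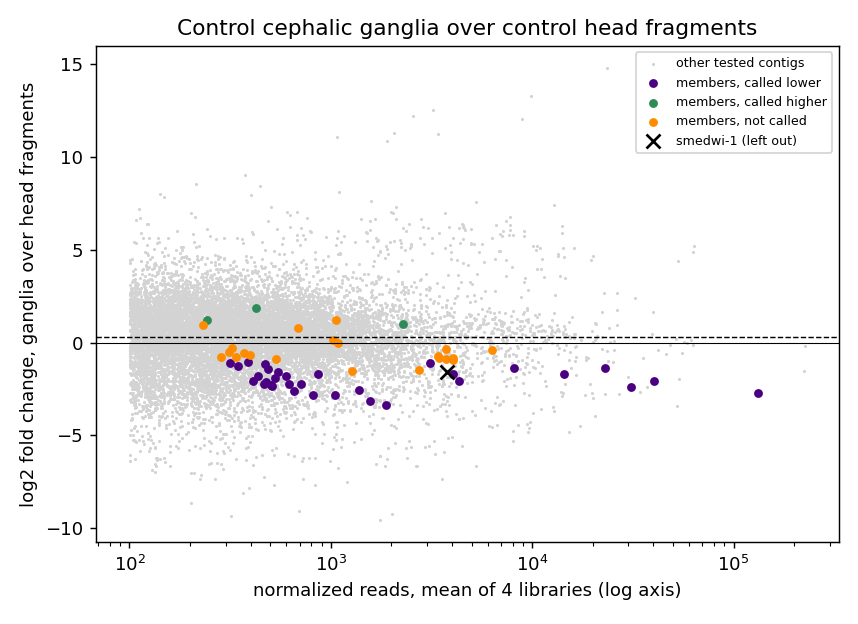
Limma log2 fold change of control CNS over control head fragments against the mean normalized reads of the 4 libraries (log axis), for 13494 contigs including 56 members; the dashed line is the median of all, 0.32. The members lie mainly under the line, with 32 called lower, 3 called higher and 21 not called, and *smedwi-1* lies at -1.59.

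Lowest in ganglia were 2 members with no annotation. On the scale of this comparison, dd_Smed_v4_626_0_1 had 257 and 435 normalized reads in control CNS and 3409 and 3378 in head fragments (log2 fold change -3.34, SE 0.26, limma adjusted p = 0.000226). In the RNAi groups it had 165 and 151 in *hh(RNAi)*, 591 and 444 in *ptc(RNAi)*, and 214 and 362 in control CNS. Contig dd_Smed_v4_5340_0_1 had 279 and 364 in control CNS and 2950 and 2639 in head fragments (log2 fold change -3.13, SE 0.15, limma adjusted p = 6.9e-05). Both had more reads in head fragments than in any CNS library. The large cluster behaved alike, since dd_Smed_v4_91_0_1 had 47506 and 26338 in control CNS and 227982 and 229895 in head fragments, at -2.69 (SE 0.30, limma adjusted p = 0.000767). For 6 members, this cluster and zonadhesin among them, more than 1 pair of head reads gave the deposited mean, and the most even pair was used. All 6 were called lower, and their SE and adjusted p rest on that choice.

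Of the annotated members, 3 were lower in ganglia. Reticulocalbin-1 had 1494 and 1873 normalized reads in control CNS and 6701 and 7176 in head fragments (log2 fold change -2.05, SE 0.13, limma adjusted p = 0.000123). The tubulin alpha 1A contig had 1799 and 1981 in control CNS and 6268 and 6113 in head fragments, at -1.71 (SE 0.08, limma adjusted p = 6.1e-05). Zonadhesin had 5980 and 3411 in control CNS and 12938 and 10189 in head fragments, at -1.35 (SE 0.29, limma adjusted p = 0.00934). For zonadhesin the head reads were the most even of several possible pairs, so its SE, adjusted p and separation rest on that choice. In reticulocalbin-1 and the tubulin contig both control CNS libraries lay below both head libraries. No share over all contigs was computed for this separation. The protein disulfide-isomerase A5 contig was also below 0, at -0.83 (SE 0.11, limma adjusted p = 0.00133), but by less than 2-fold. Contig dd_Smed_v4_331_0_1 lay at -0.81 (SE 0.28, limma adjusted p = 0.0451). Both were called lower with edgeR, with DESeq2 and with the median over the tested contigs set to 0. The WAP contig, at -0.70 (SE 0.32, limma adjusted p = 0.0951), was called lower only under the last of these alternatives.

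Higher in ganglia were 3 members. Contig dd_Smed_v4_6605_0_1, listed with No Similarity, had 675 and 658 normalized reads in control CNS and 162 and 202 in head fragments (log2 fold change 1.88, SE 0.13, limma adjusted p = 0.000169). It was the only member called higher also with that median set to 0 and with edgeR and DESeq2. The GLIPR1-like contig dd_Smed_v4_433_0_1 had 2919 and 3208 in control CNS and 1455 and 1569 in head fragments, at 1.02 (SE 0.08, limma adjusted p = 0.000263). The unannotated dd_Smed_v4_18464_0_1 had 416 and 264 in control CNS and 136 and 152 in head fragments, at 1.20 (SE 0.24, limma adjusted p = 0.00658). These last 2 were past the limit by little and were not called under those alternatives.

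The GLIPR1-like contigs did not share a position in this comparison. Beside dd_Smed_v4_433_0_1, contig dd_Smed_v4_7131_0_1 had 994 and 1185 normalized reads in control CNS and 1093 and 1077 in head fragments, and dd_Smed_v4_1530_0_1 had 680 and 1565 in control CNS and 994 and 877 in head fragments. Their libraries overlapped between the tissues, with log2 fold changes of 0.00 (SE 0.10) and 0.14 (SE 0.40). FAM115A, at -0.35 (SE 0.09), was lower by less than 2-fold with a limma adjusted p of 0.0161. The contigs with the widest RNAi differences, dd_Smed_v4_13594_0_1 and dd_Smed_v4_9223_0_1, had log2 fold changes of 1.24 (SE 0.48) and 0.77 (SE 0.35) with limma adjusted p of 0.0603 and 0.0913. Contig dd_Smed_v4_13904_0_1, named after its values were seen, averaged under 100 and was not tested, with 113 and 243 in control CNS and 18.4 and 18.5 in head fragments. It was thus higher in both control CNS libraries than in both head libraries.

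Over the CNS libraries, which include the control CNS of this comparison, the 3 members called higher in ganglia had a median of 797 normalized reads. The 32 members called lower in ganglia had a median of 275, with 9 at or above 1000 and 23 under 500, and 0 of these 23 were annotated. In these 23 the median log2 fold change of CNS over head fragments was -2.11, beside median ratios of -0.91 in *hh(RNAi)* and 1.01 in *ptc(RNAi)*. The 21 members not called had a median of 1419 and median ratios of -1.29 in *hh(RNAi)* and 1.38 in *ptc(RNAi)*. The study's annotation table required high expression, an adjusted p under 0.05 and a change beyond 2-fold in *hh(RNAi)* or *ptc(RNAi)*. These criteria together bear on which members could be annotated.

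The 2 listed markers of the neoblast, the planarian stem cell, lay in the same directions as the members. The PIWI gene *smedwi-1* had 757 and 741 normalized reads in *hh(RNAi)*, 4366 and 2892 in *ptc(RNAi)*, and 1369 and 1791 in control CNS, so that it met the ratios of the rule at -1.07 and 1.19. In control CNS over head fragments its log2 fold change was -1.59 (SE 0.14, limma adjusted p = 0.000354). The second PIWI gene *smedwi-2* had 5230 and 4459 in *hh(RNAi)*, 8488 and 8643 in *ptc(RNAi)*, and 5013 and 6725 in control CNS, at -0.27 and 0.54. Both markers of the list, 2 of 2, thus had the signs of the members, with *smedwi-2* short of the limits and overlapping between *hh(RNAi)* and control. Summed, the list ran from 5200 to 5986 in *hh(RNAi)*, 11535 to 12854 in *ptc(RNAi)* and 6382 to 8516 in control CNS. Neither marker was at 0, and the part of neoblasts in the values of the members was not tested.

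Among the other marker lists, *if-1* and *cali* (2 of 2), muscle *collagen* (1 of 1), 2 of 4 nephridia markers and 1 of 2 pharynx markers also lay below control in *hh(RNAi)* and above it in *ptc(RNAi)*. Of these, the nephridia markers *sine oculis 1/2-2* and *pou2/3* did not meet the expression minimum. The pharynx marker *mhc6* had a *ptc(RNAi)* log2 ratio of only 0.01. None of the 3 gut, 4 photoreceptor and 4 neuronal markers had both signs. In the study's neuronal panel 8 of 70 genes had them, and 1 of 7 Hh pathway genes. These are counts of signs with no share over all contigs beside them. The parenchyma marker *agat-1* had 357 and 937 normalized reads in *hh(RNAi)*, 801 and 389 in *ptc(RNAi)*, and 762 and 1188 in control CNS, at log2 ratios of -0.59 and -0.72. The gland marker *marginal adhesive gland-1* had 205 and 899 in *hh(RNAi)*, 1228 and 1144 in *ptc(RNAi)*, and 428 and 449 in control CNS. Both were lower in *hh(RNAi)* library a than in library b, the reverse of most members. *marginal adhesive gland-1* was called higher in *ptc(RNAi)* with limma and Benjamini-Hochberg adjustment, at a log2 ratio of 1.43. Muscle *collagen*, at log2 ratios of -0.34 and 0.16, ran from 426 to 590 in *hh(RNAi)*, 643 to 796 in *ptc(RNAi)* and 482 to 803 in control CNS, and the 3 gut markers summed from 2551 to 3343 in *hh(RNAi)*, 2410 to 2595 in *ptc(RNAi)* and 2719 to 2974 in control CNS. In both lists the range of *hh(RNAi)* overlapped that of control, as it did for *smedwi-2*. For *collagen* the *ptc(RNAi)* range overlapped control too. The summed gut markers were lower in *ptc(RNAi)* than in control without overlap, and *smedwi-2* was higher in *ptc(RNAi)* without overlap. The part of these tissues in the members' values was not tested.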

How the data were processed

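The authors mapped reads to the Dresden transcriptome assembly of *S. mediterranea* using Bowtie2, trimming 5 bases and reporting the best single alignment, counted them with SAMtools and compared groups with DESeq2; versions are not given in the sources used here. The deposited signal columns hold group means of normalized reads in 3 tables. Their fold-change and p-value columns hold the authors' own comparisons and were not used. Every mean splits into whole multiples of 2 steps, a step per library, which gave whole reads per library for 100% of means above 0 (tested on simulated data); the control CNS reads were identical between both RNAi tables in all 38634 contigs. Which mean is which group in the head table was read from the same match. No columns of other series were present.

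Because the unit was not counts, limma 3.58.1 (R 4.3.3, trended variance) was the main test on log2(normalized reads + 1), for contigs averaging at least 100, with Benjamini-Hochberg adjustment, and calls needed an adjusted p under 0.05 with a change beyond 2-fold; edgeR 4.0.16 and DESeq2 1.42.0 on recovered reads were alternatives. Fold changes on this scale are understated for low contigs. With 2 libraries against 2, an exact permutation test cannot go below p = 0.333, so none was run. Python 3.11.15 did the remaining steps. Normalized reads in the RNAi groups are on size factors of the 6 CNS libraries, and CNS against head values on those of the head comparison.

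Named were all annotated members and, of the others, the 2 with the largest distance between *ptc(RNAi)* and *hh(RNAi)* and the 2 highest and 2 lowest called in CNS over head fragments (only 1 was called higher). Members and lists were chosen with earlier results of these data known. Alternatives covered scaling, minimum, threshold, pseudocount (1 against 10), tools and left-out libraries.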

Additional observations from a re-analysis of the deposited data

How the results depend on the processing

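The number of contigs meeting the rule was 57, and 17 with a minimum of 1000, 462 with no minimum and 25 at a log2 limit of 1; leaving out each library gave 45 to 65. The count of fully ordered members was 48, and 19 among those averaging at least 1000. Members called higher in CNS than in head fragments were 3, and 1 with DESeq2, with edgeR, with a minimum of 1000 and with the median over the tested contigs set to 0; leaving out a library gave 2 to 5, the 5 without control CNS library a. Members called lower were 32, and 13 with a minimum of 1000; leaving out a library gave 29 to 39. The median log2 fold change over the members was -1.35, and -1.59 with DESeq2, -1.57 with edgeR and -1.67 with the median over the tested contigs set to 0; leaving out a library gave -1.47 to -1.09. Hh pathway genes called in *hh(RNAi)* were 0 with limma and 1 with DESeq2, and 0 with each library left out. The other alternatives kept counts within 1.5 times and medians within the spread between libraries. No paired analysis was possible because the recovered libraries carry no replicate number. With 2 libraries per group, 1 library can decide whether a contig is a member: 35 of 57 failed the rule in at least 1 of 6 such cases.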
